A study of Anas platyrhynchos with 6 samples.

Results

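The core circles of duck embryonic breast muscle were the back-splice junctions that had at least 1 read in each of the 6 libraries sequenced. The table listed 16631 circular RNAs, and rows that gave the same chromosome, end and strand with starts 1 base apart were merged into 1 junction, keeping the larger count in each library. This left 14917 junctions, of which 1108 (7.43%) were core. The members were chosen from the read counts themselves, so their abundance and their presence at both stages describe the rule and are given without a test.

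Breast muscle came from female embryos of the Shanma duck, an indigenous Chinese breed, at embryonic day 13 (E13, 3 libraries) and embryonic day 19 (E19, 3 libraries). The labels give the myoblasts as not yet differentiated at E13 and most of them as differentiated at E19. All 6 libraries were depleted of ribosomal RNA and digested with RNase R, and no embryo received a treatment. Whole muscle was sequenced, so fewer cells of a type and less RNA per cell cannot be told apart, and mRNA markers of the cell types were not measured by back-splice reads.

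A circular RNA forms when the spliceosome joins a downstream splice donor to an upstream acceptor of the same transcript. The closed loop has no free end, which protects it from exonucleases such as RNase R, and circular RNAs are known to persist in tissues of slowly dividing or non-dividing cells, muscle among them. Types are as listed: exonic circles hold 1 or more exons, ciRNAs are listed as intronic, and intergenic junctions as lying outside annotated genes. Introns flanking a circle are usually long, and the second exon of a gene is a common place for circles to start.

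Between 24558167 and 27857433 reads mapped per library, and the merged junctions held 36506 to 69736 back-splice reads per library. Core junctions made up 19.3 to 26.1% of the junctions seen in a library. They held 68.7, 69.9 and 70.1% of the back-splice reads in the E13 libraries (69.6 ± 0.764%, SD, n = 3) and 69.2, 70.7 and 69.1% in the E19 libraries (69.7 ± 0.902%, SD, n = 3). The share was thus almost the same in every library, although the depth of back-splice reads differed. Core reads per 1000000 mapped reads were 1446, 1039 and 1253 at E13 and 1508, 1889 and 1239 at E19, and the ranges of the stages overlapped.

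Most junctions were rare. A total of 9252 junctions (62%) were seen in 1 library, with a median of 2 reads, and together they held 7.82% of the reads. The 610 junctions seen in 5 libraries had a median of 31.5 reads, against 86 reads for the core (10th to 90th percentile 36.7 to 389.9 reads). Depth and the rule go together: of 517 junctions with 100 or more reads in all, 486 were core.

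**Figure D1:**
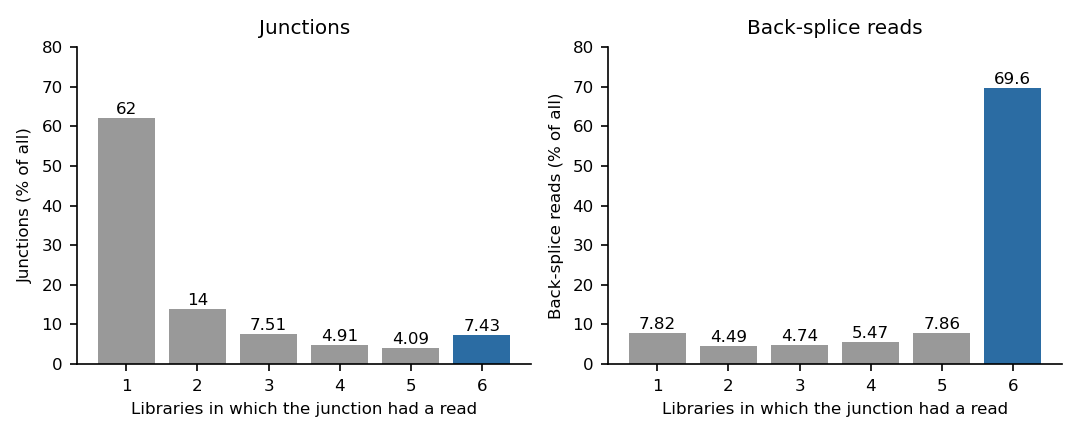
Share of junctions (left) and of back-splice reads (right), in percent of all, by the number of libraries in which a junction had a read; the core is blue. Junctions seen in all 6 libraries were 7.43% of the junctions and held 69.6% of the reads, whereas junctions of 1 library were 62% of the junctions and held 7.82% of the reads.

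The boundary of the core was set by single reads. The weakest members were circles of TTC28, a tetratricopeptide repeat protein, with 1, 4 and 3 reads at E13 and 1, 1 and 2 reads at E19, and of VPS41, a subunit of the HOPS tethering complex, with 5, 1 and 2 reads and 1, 4 and 1 reads. The TTC28 circle was core only after merging: at E13 its rows had 1, 4 and 0 reads and 0, 0 and 3 reads. A circle of RBKS (ribokinase) had 2, 1 and 3 reads at E13 and 1, 5 and 2 reads at E19, and a circle of SORCS2, a sortilin-related receptor, had 2, 2 and 5 reads and 1, 3 and 1 reads. In all, 81 core junctions had a single read in at least 1 library, 1027 had at least 2 reads in each library and 389 had at least 10.

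Abundant circles also lay just outside. A circle of ENSAPLG00000012949 had 41, 41 and 40 reads at E13 and 322, 0 and 138 reads at E19. The intergenic circRNA7034 on chromosome 4 had 0, 3 and 54 reads and 69, 99 and 134 reads, and the circle of FGFR2 exons 2 to 5 had 97, 43 and 58 reads and 3, 0 and 8 reads. Each of these had a 0 in a single library, and the circle of ENSAPLG00000012949 had at least 40 reads in each of the others.

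A zero in the table can be set against a second count for 346 core junctions, which were listed under a pair of IDs. Of their 2076 library values, 543 (26.2%) were equal in both listings, and 686 (33%) were 0 in one listing and above 0 in the other, where the other listing had a median of 7 and at most 260 reads. The circle of INPP5A exons 2 to 4 was listed with 300, 158 and 0 reads at E13 and 0, 398 and 0 reads at E19 under one ID, and with 315, 162 and 180 reads and 260, 419 and 244 reads under the other. Where both listings had reads, the smaller count was a median of 0.952 times the larger. Of the 346 pairs, 256 were core by at least 1 listing alone and 90 only after merging. In 67 of the pairs each library had reads in 1 listing only. For the 762 other core junctions only 1 listing exists. A merged pair has a read wherever either listing has one, so listing and core membership go together. The circles came from a list with exon numbers and a list with intron coordinates. Core were 345 of the 1702 junctions in both lists, 421 of 9207 with exon numbers alone and 342 of 4008 with intron coordinates alone.

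The core was mainly exonic. It held 871 exonic circles (78.6%) and 45 ciRNAs (4.06%), and 17.3% of it was intergenic. Of the other 13809 junctions, the shares were 75.8%, 11.1% and 13.1%. These shares count all 543 junctions of chromosome Z as intergenic, as listed, and 71 of them were core. There the label does not separate circles of genes from circles outside genes. Whether the core holds more intergenic junctions apart from this chromosome was not tested. The 45 ciRNAs had a median genomic span of 5114 bases, against 1059 bases for the 1527 other ciRNAs. Of the 45, 18 shared a start or an end, within 1 base, with an exonic junction, and of the other ciRNAs 333 (21.8%) did. Whether these circles hold intron alone was not tested. Core intergenic junctions, those of chromosome Z included, were not the weak end of the core. Their median was 98 reads, against 85 for exonic circles and 75 for ciRNAs, and they held 19.1% of the core reads.

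Core exonic circles were compact. The median was 3 exons in the core and in the rest, but 73.9% of core exonic circles held 2 to 4 exons against 61.5% of the others, and circles of 8 or more exons were 2.76% against 10.1%. Single-exon circles were 4.13% of the core and 6.06% of the others. Spliced length had a median of 402 bases in the core (10th to 90th percentile 238 to 770 bases) and 459 bases elsewhere (224 to 1088 bases). The range of lengths was thus narrower in the core, mainly at the long end, while the median genomic span was 7284 bases in the core and 6755 bases elsewhere.

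Core circles began at exon 2 more often than the others and had longer flanking introns, as shares and medians without a test. Among circles with exon numbers, 245 of 765 core circles (32%) began at exon 2, against 23% of 9414 others, and 64 (8.37%) included exon 1, against 5.62%. These numbers follow the transcript listed for each circle, and whether its first exon is the true one in muscle was not tested. Of the 245, 67 ran from exon 2 to exon 3 and 63 from exon 2 to exon 4. For 382 core circles with both flanking introns given, the shorter of them had a median of 7608 bases (quartiles 3724 and 13637 bases), against 4649 bases for 2002 other circles (1682 and 9606 bases). The upstream intron had a median of 12087 bases and the downstream one of 11692 bases.

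These features changed with the number of libraries rather than only at the edge of the core. The share beginning at exon 2 was 20.9% for junctions of 1 library, 26.1% for 2, 25.5% for 3, 30.3% for 4, 29.2% for 5 and 32% for 6. The median of the shorter flanking intron went from 3308 bases in 1 library to 5978 bases in 5 and 7608 bases in 6. Within the core, the 291 exonic circles with the most reads began at exon 2 in 38.1% of cases and had a median shorter intron of 8715 bases, against 28.1% and 6818 bases for the 290 with the fewest reads. The share of junctions found in both lists also went from 2.58% for 1 library to 35.2% for 5 and 31.1% for 6. The number of libraries, the number of reads, the listing and these features thus moved together, and no test separated them.

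**Figure D2:**
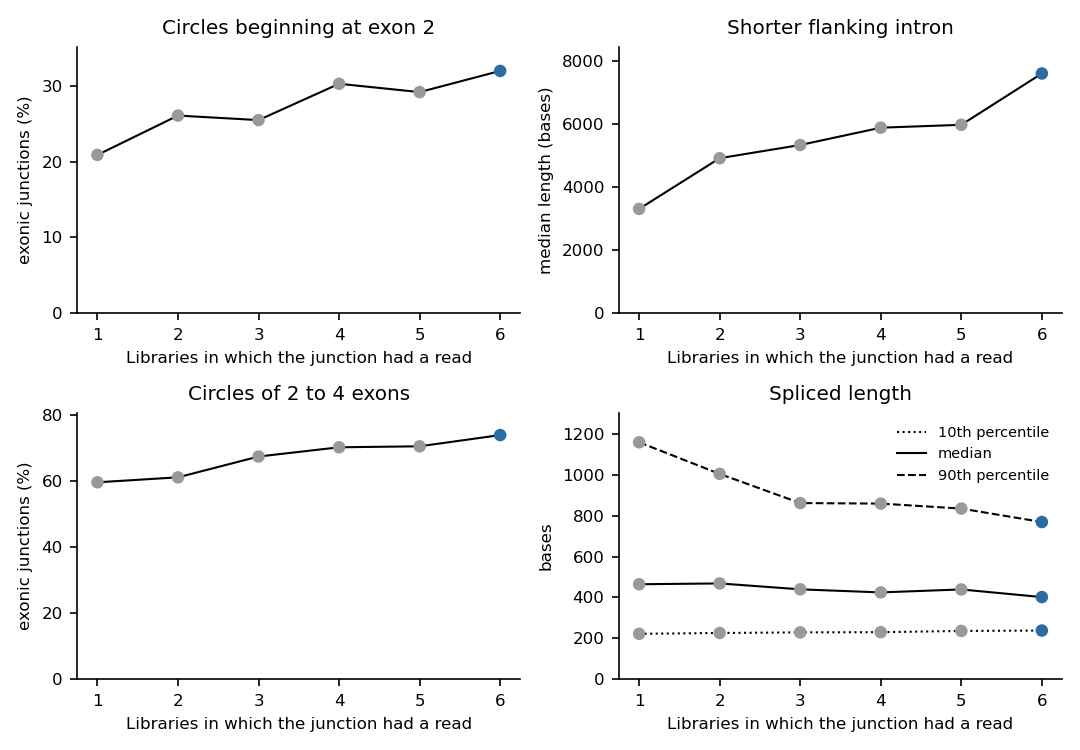
Features of exonic junctions by the number of libraries in which they had a read (core in blue): share beginning at exon 2 (percent), median of the shorter flanking intron (bases), share with 2 to 4 exons (percent), and the 10th percentile, median and 90th percentile of spliced length (bases). Toward 6 libraries, the share beginning at exon 2 rose to 32%, the shorter intron lengthened to 7608 bases, and the 90th percentile of length fell from 1161 to 770 bases.

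Chromosomes 2, 1 and 3 carried 160, 157 and 123 core junctions. Of the junctions on chromosome Z, 71 of 543 (13.1%) were core, against 7.43% over all junctions, and on chromosome 15 8 of 290 (2.76%) were. All 543 were listed as intergenic, so no junction of chromosome Z had a parental gene, and all came from the list with intron coordinates. On this chromosome the label thus does not separate circles of genes from circles outside genes. Junctions with intron coordinates alone seldom had single reads: 31 of their 8408 values above 0 were 1. For junctions with exon numbers alone, 4602 of 15054 were.

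A small number of circles dominated the core. The first 101 junctions held 50.1% of its 222790 reads, the top 12 held 21.2%, and the first alone held 11.4%. This was the circle of exons 2 and 3 of ENSAPLG00000008538 (circRNA1989, chromosome 2, 46125 to 49485, minus strand, 261 bases), whose product the files place in the SWI/SNF chromatin remodelling complex. It had 2879, 1726 and 2587 reads in the E13 libraries and 5285, 9080 and 3769 in the E19 libraries. It took 6.76 to 7.82% of core reads in the E13 libraries and 11 to 18.4% in the E19 libraries, so that every E19 library was above every E13 library.

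Levels are given below as SRPBM, the measure of the study. It scales back-splice reads by read length and by the mapped plus candidate back-splice reads of each library. The median core junction had 3.49 SRPBM over the 6 libraries, and the 10th and 90th percentiles were 1.49 and 15.8. The circle of ENSAPLG00000008538 had 587 ± 114 SRPBM at E13 and 1472 ± 697 at E19 (SD, n = 3 each, as for all values below). The next was circRNA3839, an intergenic junction on chromosome Z (31950021 to 31990230, plus strand), with 68.9 ± 31.2 and 261 ± 93.1 SRPBM. Its reads were 431, 142 and 280 at E13 and 1236, 1323 and 654 at E19, without overlap.

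NAA16, an auxiliary subunit of the NatA complex that acetylates the N-termini of new proteins, gave the third and the sixth of the 12. The third was listed as a ciRNA (ciRNA171, chromosome 1, 183524085 to 183528218), although its span covered the exons of the sixth. It had 389, 274 and 347 reads at E13 and 389, 509 and 368 in the E19 libraries. The sixth was the exonic circle of exons 6 and 7 (circRNA2963), which had the same listed start and ended at 183527253, with 58.8 ± 6.83 SRPBM at E13 and 87.4 ± 16.2 at E19. Their spread within a stage is given as the coefficient of variation (CV, the SD as a percent of the mean, on reads per 1000000 mapped). It was 11.3 and 11.9% at E13 and 20.8 and 19.1% at E19. The medians of core junctions with a mean of at least 50 reads per library were 29.3% at E13 and 23.9% at E19.

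GAS2, a protein that binds actin filaments and microtubules, gave the fourth, a circle of exons 5 to 7 (circRNA1166, chromosome 5, 9241516 to 9250291, minus strand, 317 bases). It had 890, 386 and 461 reads at E13 and 123, 114 and 215 at E19. NRBP1, a pseudokinase of vesicle trafficking and signalling, gave the fifth, a circle of exons 2 to 6 with 469, 265 and 288 reads at E13 and 378, 425 and 276 in the E19 libraries. The stages did not overlap for GAS2 and overlapped for NRBP1, at 83.3 ± 22.2 and 87.3 ± 20.4 SRPBM.

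The remaining members of the top 12 had mean levels of 42 to 69.2 SRPBM at E13 and 49.3 to 90.9 at E19. They were the intergenic circRNA3729 on chromosome Z and circles of SETD3 (actin histidine methyltransferase), ENSAPLG00000000805, INPP5A (an inositol phosphate 5-phosphatase), SLC9A9 (an endosomal sodium/proton exchanger) and PHIP (a bromodomain protein that binds insulin receptor substrates). The circle of SETD3 exons 3 to 7 had 232, 90 and 196 reads at E13 and 374, 429 and 321 at E19, which did not overlap. Its log2 change of 1.11 (SE 0.356) did not pass the test across all junctions (edgeR, adjusted p = 0.112). The circle of PHIP exons 3 to 5 had the least spread of the 12 at E13, with 223, 177 and 214 reads and a CV of 6.33%.

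**Figure D3:**
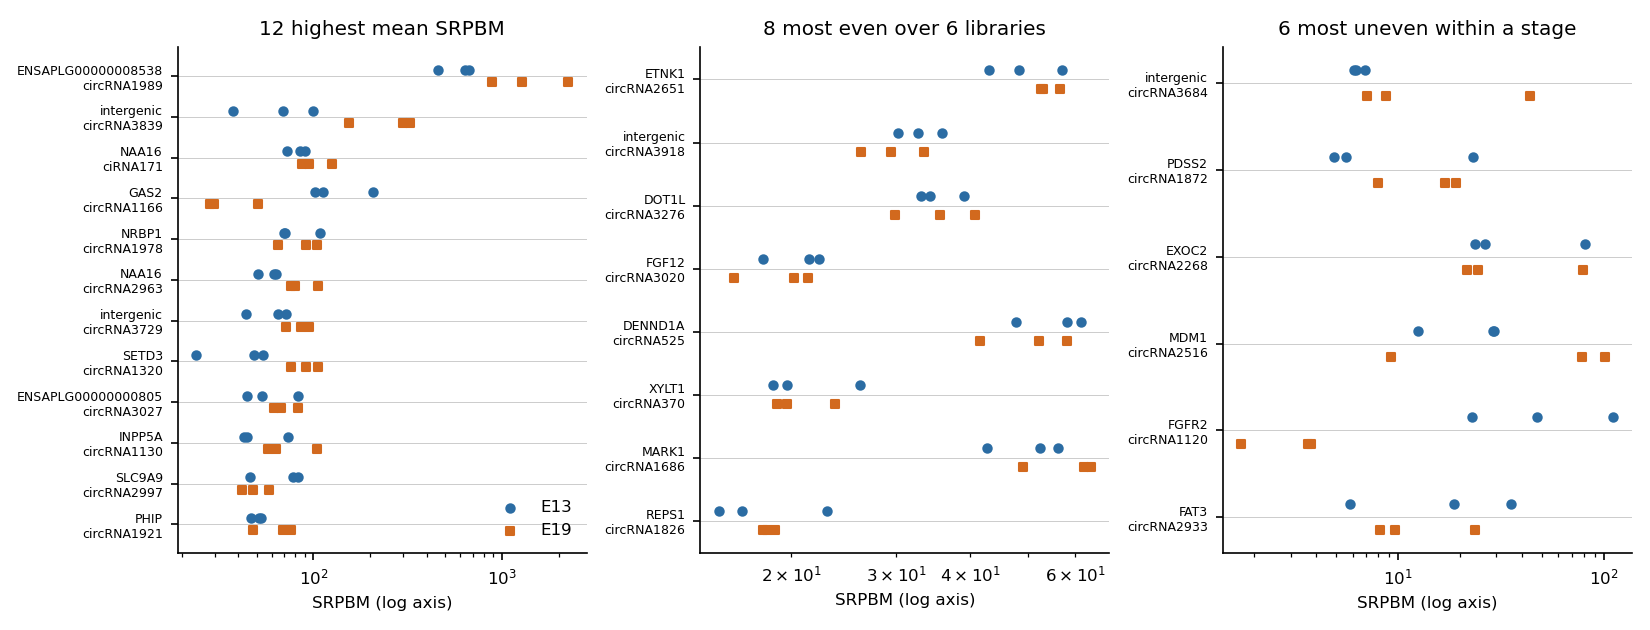
SRPBM of single libraries on log axes (blue circles, E13; orange squares, E19) for the 12 core junctions with the highest mean SRPBM, the 8 with the lowest CV over 6 libraries and the 6 with the highest CV within a stage (the latter 2 sets among core junctions with a mean of at least 50 reads per library). GAS2 and FGFR2 lay lower at E19 in all 3 libraries, ENSAPLG00000008538 and circRNA3839 higher, and 1 library stood apart from the others of its stage for circRNA3684 and EXOC2.

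The most abundant core ciRNAs after that of NAA16 came from AMBRA1, a regulator of autophagy, with 28.4 ± 4.63 SRPBM at E13 and 41.7 ± 8.19 at E19, and from CAMK2G, a calcium/calmodulin-dependent kinase, with 49, 40 and 42 reads and 26, 74 and 36 reads. A ciRNA of GALNS, a lysosomal sulfatase, had 37, 13 and 15 reads at E13 and 40, 77 and 73 at E19. AMBRA1 and GALNS were higher at E19 without overlap between the stages, as were 9.65% of all junctions tested. Neither passed the test (adjusted p = 0.628 and 0.112, edgeR). None of the 45 core ciRNAs passed it by edgeR at an adjusted p under 0.05, and 4 were higher at E19 at the thresholds of the study (a log2 change of at least 1 and p of at most 0.05). Over all junctions tested, 1.16% passed the adjusted p and 6.01% were higher at the thresholds of the study.

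Of the intergenic core junctions, circRNA3999 on chromosome 1 had 312, 89 and 252 reads at E13 and 231, 154 and 129 at E19, and circRNA4120 on chromosome 2 had 237, 138 and 126 reads and 247, 143 and 125 reads. Both were as abundant as well annotated exonic circles and overlapped between the stages.

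The core came from 637 parental genes, 15.4% of the 4129 genes that gave any circle. Of these, 463 gave 1 core junction, 107 gave 2, 43 gave 3, 18 gave 4, 3 gave 5, 1 gave 7 and 2 gave 8. For the median parental gene the core junctions held 84.8% of all its back-splice reads. Where a gene had 2 or more core junctions, the strongest of them held a median of 60.8% of their reads. Of all core junctions, 400 (36.1%) shared a splice site with another core junction within 1 base, 258 on the acceptor side and 197 on the donor side.

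NUBPL, a factor that delivers iron-sulfur clusters to mitochondrial complex I, and CCNY (cyclin Y), a cyclin of the plasma membrane, gave 8 core junctions each. The NUBPL circles differed in level. Of the stronger ones, circRNA1221 (exons 4 to 6) had 45, 52 and 53 reads at E13 and 63, 75 and 56 at E19, and circRNA4635 had 56, 41 and 40 reads and 40, 43 and 58 reads, whereas circRNA1219 (exons 4 to 9) had 14, 3 and 7 reads and 12, 3 and 8 reads. Of the 8, 4 used the acceptor at 20571616 and 3 the acceptor at 20582225 of chromosome 5. The strongest held 24% of the NUBPL core reads.

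The CCNY circles fell into a set of 4 that used the acceptor of exon 2 (13620086 on chromosome 2) and a set of 3 that used the acceptor of exon 4 (13603681). The circle of exons 2 to 7 (circRNA2023) led with 93, 53 and 77 reads at E13 and 52, 66 and 51 at E19, and the weakest (circRNA2022, exons 3 to 7) had 13, 2 and 3 reads and 11, 5 and 5 reads. None of the 16 core junctions of NUBPL and CCNY passed the test (edgeR, adjusted p of 0.705 or more for the NUBPL junctions and 0.749 or more for the CCNY ones).

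DENND1A, an exchange factor for Rab GTPases, gave 7 core junctions. The circle of exons 10 to 13 (circRNA525) held 53.4% of their reads, with 265, 219 and 194 reads at E13 and 215, 235 and 176 at E19, and its donor at 10148908 of chromosome 18 served 3 of the 7. RABGAP1L, a Rab GTPase activating protein, gave 5, among them circles of exons 1 to 12 (29, 10 and 17 reads at E13, 10, 18 and 15 at E19) and 1 to 10 (15, 31 and 14 reads, 18, 19 and 19 reads). PCCA, a subunit of mitochondrial propionyl-CoA carboxylase, and ENSAPLG00000002683 also gave 5. The share of the strongest circle thus ran from 24% in NUBPL through 53.4% in DENND1A to 94.6% in ENSAPLG00000008538, which had 4 core junctions.

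The remaining junctions of ENSAPLG00000008538 shared its acceptor at 49485 or its donor at 46125. The circle of exons 2 to 4 had 87, 63 and 77 reads at E13 and 212, 306 and 130 in the E19 libraries, the circle of exons 2 to 5 had 97, 61 and 44 reads and 108, 109 and 91 reads, and a ciRNA had 21, 4 and 3 reads and 8, 21 and 13 reads. SLC9A7, a sodium/proton exchanger of the Golgi, also gave 4 core junctions, led by circRNA4727 with 209, 93 and 175 reads at E13 and 166, 241 and 247 in the E19 libraries.

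The longest core circle held exons 14 to 32 of NUP188, a scaffold nucleoporin (19 exons, 2153 bases), with 5, 4 and 2 reads at E13 and 4, 30 and 11 at E19. VRK1, a nuclear serine/threonine kinase, gave a circle of 11 exons with 1, 3 and 5 reads at E13 and 2, 1 and 5 at E19. Both were weak members, below the median of the core.

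Core junctions differed between libraries of 1 stage. The median CV was 40.7% at E13 and 40% at E19, of which counting alone would give a median of 27.4 and 25.1%. For 269 core junctions at E13 and 253 at E19 the CV was at or below that of counting. Among the 163 core junctions with a mean of at least 50 reads per library, the median CV was 29.3% at E13 and 23.9% at E19 against 11.6 and 10.7% for counting, and 11 and 14 of them were at or below counting. Junctions of 5 libraries had a median CV of 87.1% at E13 and 84.6% at E19, which their zeros enlarge by construction.

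**Figure D4:**
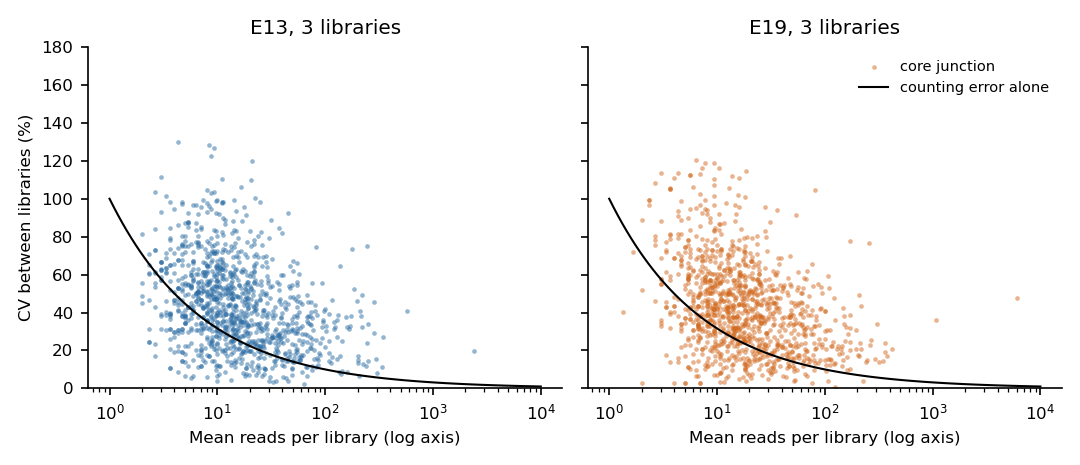
CV between the 3 libraries of a stage (percent, on reads per 1000000 mapped) against the mean reads per library (log axis) for the 1108 core junctions at E13 (left) and E19 (right); the line is the CV that counting error alone would give. Most junctions lie above the line, with medians of 40.7% at E13 and 40% at E19.

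The most even of the 163 was the circle of ETNK1 exons 2 to 7. ETNK1, ethanolamine kinase, starts the synthesis of phosphatidylethanolamine, and its circle had 246, 162 and 197 reads at E13 and 233, 213 and 225 at E19, with a CV of 10.5% over the 6 libraries. The intergenic circRNA3918 on chromosome Z (11.2%) had 32.9 ± 2.77 and 29.6 ± 3.61 SRPBM, and a circle of DOT1L (11.2%), the histone methyltransferase of transcribed genes, had 142, 129 and 159 reads and 123, 144 and 173 reads. They were chosen for a low CV over both stages, so a small difference between the stages follows from the choice.

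A circle of FGF12 exons 2 and 3 followed at 12.2%. FGF12 is an intracellular member of the fibroblast growth factor family that binds sodium channels, and its circle had 92, 84 and 73 reads at E13 and 83, 86 and 68 in the E19 libraries. The others were circles of DENND1A (14.4%), XYLT1 (14.7%), which starts the sugar chains of proteoglycans, MARK1 (14.7%), a microtubule affinity regulating kinase, and REPS1 (14.9%), a protein of endocytosis. The MARK1 circle (exons 2 and 3) had 184, 198 and 228 reads at E13 and 202, 258 and 264 at E19.

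Among the most uneven, circRNA3684, an intergenic junction on an unplaced scaffold, had 27, 23 and 28 reads at E13 and 36, 177 and 30 at E19, a CV of 105% at E19. PDSS2, a subunit of the enzyme that makes the side chain of coenzyme Q, gave a circle with 21, 21 and 94 reads and 33, 68 and 81 reads, where the count of E19 replicate 1 came from the second listing. EXOC2, a subunit of the exocyst, gave a circle of exons 2 to 4 with 114, 89 and 327 reads and 101, 319 and 92 reads. In EXOC2, 1 library of each stage was more than 2 times above the others, and the stage means were alike (43.5 ± 32 and 41.7 ± 32.2 SRPBM).

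MDM1, a protein of centrioles, gave a circle with 126, 47 and 117 reads at E13 and 320, 410 and 39 at E19, and FAT3, a giant cadherin, a single-exon circle with 80, 22 and 144 reads and 97, 33 and 41 reads. The sixth was FGFR2, whose libraries at E13 had 204, 86 and 451 reads. No 1 library was high in all 6: the highest count came from E13 replicate 3 for FGFR2, FAT3, PDSS2 and EXOC2 and from E19 replicate 2 for circRNA3684 and MDM1.

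The order of the core junctions by level was alike in all libraries. Over the 1108 junctions, Spearman's rho between libraries was 0.736 to 0.754 within E13, 0.735 to 0.777 within E19 and 0.653 to 0.692 between the stages. Each value within a stage was thus above each value between stages. The rho is across junctions, which are not independent replicates, and all libraries share the same junctions chosen for being present in all.

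To compare E19 with E13, edgeR's quasi-likelihood test was fitted to all 3608 junctions with at least 10 reads in all, with mapped reads as library size, and p-values were adjusted over all of them (Benjamini-Hochberg). All 1108 core junctions were among them. The adjusted p was under 0.05 for 18 of them, of which 15 had more and 3 had fewer reads at E19. This is 1.62% against 1.16% of all junctions tested. By direction, 1.35% of the core against 0.776% of all were higher, and 0.271% against 0.388% were lower. At the thresholds of the study 96 core junctions passed (8.66%, against 9.01% of all), 72 higher (6.5%, against 6.01%) and 24 lower (2.17%, against 2.99%). These shares were near those of all junctions. A junction without reads at a whole stage could not be a member, so the widest changes fall outside the core by the rule.

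The split by direction moved with the scaling. With mapped reads, 15 of the 18 calls were higher and 3 lower. With TMM factors there were 23 calls, 16 higher and 7 lower, and these held all of the first 18. Scaling by total back-splice reads also gave 18 calls, 9 higher and 9 lower, but only 12 of the first 18 were among them. At the thresholds of the study the splits were 72 and 24, 54 and 44, and 42 and 62. The median log2 change of all tested junctions was 0.26, 0.10 and -0.04 under these scalings, and that of the core 0.17, 0.02 and -0.11. The changes below are on the scale of mapped reads and are to be read against the median of 0.26. Leaving out E13 replicate 1 or E19 replicate 2 each left 2 of the 18 calls, those of FGFR2 and circRNA3743.

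Fitted changes were narrower in the core. The absolute log2 change was under 1 for 857 core junctions (77.3%), against 41.7% of the 2500 other junctions tested, and the 10th and 90th percentiles were -0.84 and 1.19 in the core and -2.34 and 4.77 elsewhere. The others have fewer reads and may have none at a stage, which widens their values. The stages did not overlap for 218 core junctions (19.7%), against 14.5% of all tested, 152 higher at E19 (13.7%, against 9.65%) and 66 lower (5.96%, against 4.85%).

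**Figure D5:**
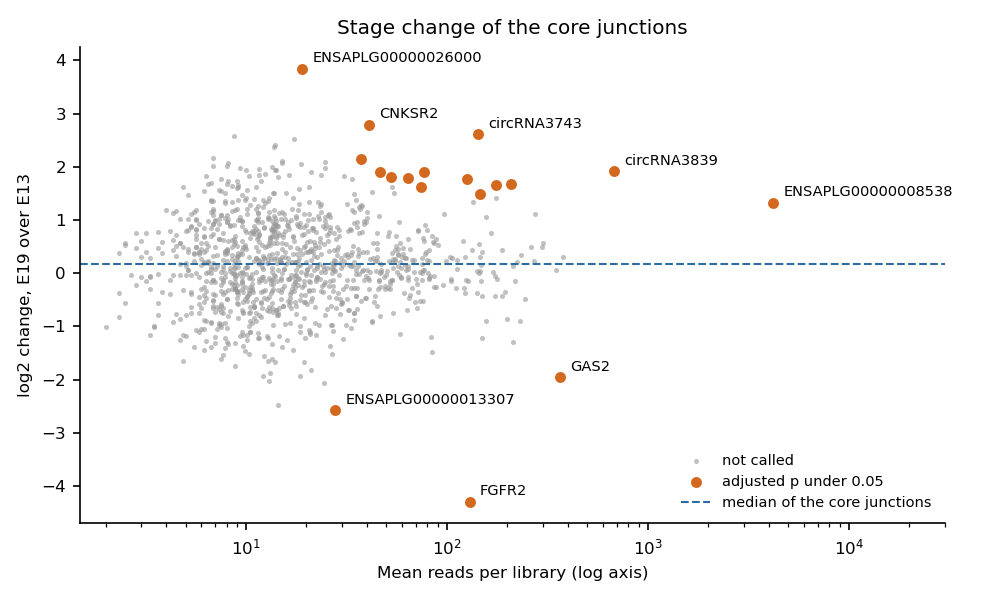
Log2 change (E19 over E13, scaled by mapped reads) of the 1108 core junctions against their mean reads per library (log axis). Orange points passed an adjusted p under 0.05 (edgeR): 15 lay above 0 and 3 below, and the dashed line is the core median of 0.17.

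The widest called change was in FGFR2, a receptor tyrosine kinase of fibroblast growth factors. The circle of its exons 2 and 3 (circRNA1120, chromosome 6, 31855952 to 31856981, minus strand, 342 bases) had 204, 86 and 451 reads at E13 and 15, 7 and 16 at E19. Its log2 change was -4.29 (SE 0.47, adjusted p = 4.04e-11, edgeR). Every E19 library was far below every E13 library. In the alternative without merging, a junction listed under a pair of IDs, as here, was judged by its row with the smaller p. The FGFR2 call held in all 18 alternatives. The size of the adjusted p did not: it ran from 5.95e-20 (edgeR, no filter) to 0.0127 (edgeR, without E13 replicate 1). The circle of GAS2 exons 5 to 7 followed (log2 change -1.96, SE 0.359, adjusted p = 0.000203, edgeR), a call lost in 2 of the alternatives. GAS2 gave a second core junction, exons 4 to 7, with 39, 13 and 23 reads at E13 and 5, 2 and 21 at E19, which overlapped (adjusted p = 0.433, edgeR). The last of the lower circles was of ENSAPLG00000013307, with 39, 22 and 82 reads and 7, 10 and 7 reads (log2 change -2.57, SE 0.589, adjusted p = 0.00546, edgeR). Its call was lost in 6 of the 18 alternatives.

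Of the circles higher at E19, circRNA3743, intergenic on chromosome Z (6959399 to 6967825, plus strand), had the smallest adjusted p. It had 51, 39 and 28 reads at E13 and 204, 255 and 281 at E19 (log2 change 2.62, SE 0.397, adjusted p = 1.81e-06, edgeR). The call held in all 18 alternatives, with an adjusted p from 9.01e-14 (DESeq2) to 0.017 (edgeR, without E13 replicate 1). The second was circRNA3839 on the same chromosome (log2 change 1.92, SE 0.35, adjusted p = 0.000203). Another intergenic junction, circRNA4080 on chromosome 16, had 24, 31 and 30 reads at E13 and 99, 128 and 73 at E19 (log2 change 1.78, SE 0.442, adjusted p = 0.0146). All 3 were higher at E19 without overlap between the stages, as were 9.65% of all junctions tested. The 3 were chosen by adjusted p on the same counts, so the separation is no further support. The call on circRNA3839 was lost in 4 of the 18 alternatives and that on circRNA4080 in 8.

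The largest called change upward was in ENSAPLG00000026000, whose product the files place in the sarcoplasmic reticulum. Its circle of exons 2 to 5 had 2, 2 and 3 reads at E13 and 27, 56 and 24 at E19 (log2 change 3.84, SE 0.745, adjusted p = 0.000444, edgeR). One of its listings had 0 reads in all 3 E13 libraries, so that it belonged to the core through the other listing. The call was lost in 3 of the 18 alternatives, limma voom among them.

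Of the 53 core junctions in the list of protein kinases and scaffolds, 3 were called higher, where 0.776% of all junctions tested were. CNKSR2, a scaffold of Ras signalling, gave a circle of exons 7 and 8 with 12, 13 and 5 reads at E13 and 37, 104 and 74 at E19 (log2 change 2.79, SE 0.531, adjusted p = 0.000319, edgeR). STK39, a kinase that regulates chloride cotransporters, gave a circle of exons 11 to 13 with 53, 61 and 53 reads and 194, 232 and 161 reads (log2 change 1.78, adjusted p = 0.00292). MAPKBP1, a scaffold of JNK signalling, gave a circle of exons 24 to 26 with 128, 73 and 95 reads and 349, 329 and 275 reads (log2 change 1.67, adjusted p = 0.00293). In each of the 3 the lowest E19 library was above the highest E13 library, as for 9.65% of all junctions tested. The 3 were chosen by adjusted p on the same counts. Of the 18 alternatives, the call was lost in 2 for CNKSR2, 4 for STK39 and 6 for MAPKBP1.

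The further circles higher at E19 came from genes of varied function. ENSAPLG00000022613 had 100, 64 and 89 reads at E13 and 263, 332 and 210 at E19 (adjusted p = 0.00455, edgeR), and ZNF385B, a zinc finger protein, had 7.91 ± 3.02 and 29.7 ± 14 SRPBM (adjusted p = 0.00594). MTCL1, which crosslinks microtubules, had 16, 6 and 19 reads and 73, 77 and 33 reads (adjusted p = 0.0129), and NAXD, which repairs hydrated NAD(P)H, had 12, 18 and 28 reads and 76, 99 and 46 reads (adjusted p = 0.019). A circle of CERS6, a ceramide synthase, rose from 46, 33 and 29 reads to 113, 144 and 81 reads (adjusted p = 0.0249). All 5 were separate between the stages, as were 9.65% of all junctions tested in this direction. They were chosen by adjusted p on the same counts, so the separation is no further support. The call on CERS6 was lost in 12 of the 18 alternatives, including each library left out, and that on NAXD in 10. Those on ZNF385B and MTCL1 were each lost in 7, and that on ENSAPLG00000022613 in 5.

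The dominant circle of ENSAPLG00000008538 was also called higher at E19 (log2 change 1.33, SE 0.321, adjusted p = 0.0112, edgeR), as was its circle of exons 2 to 4 (log2 change 1.50, SE 0.383, adjusted p = 0.019). Each of these calls was lost in 9 of the 18 alternatives. That on the dominant circle did not stand without E19 replicate 2, its highest library (log2 change 0.88, adjusted p = 0.624), nor with the edgeR exact test (adjusted p = 0.221), and that on exons 2 to 4 did not stand under the same alternatives (log2 change 1.14, adjusted p = 0.517, and adjusted p = 0.217). The remaining call was ENSAPLG00000022918, with an adjusted p of 0.0222 (edgeR), lost in 10 of the 18 alternatives and named here after its values were seen.

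Genes named in the text of the study gave further core circles that did not pass an adjusted p under 0.05. A circle of GLI3 exons 8 to 10, a transcription factor of hedgehog signalling, had 310, 263 and 329 reads at E13 and 168, 127 and 81 at E19 (log2 change -1.28, SE 0.363, adjusted p = 0.0515, edgeR). A circle of PEPD, which splits dipeptides ending in proline, had 321, 142 and 164 reads and 85, 103 and 83 reads (adjusted p = 0.0917). By qRT-PCR the study reported circles of GLI3, PEPD, GAS2 and FGFR2 as significantly downregulated and circles of STK39 and MAPKBP1 as significantly upregulated. Its SETD3 circle was the exception to the sequencing. The study gives its GAS2 circle the same exons as the GAS2 circle called lower above. Whether the circles it measured share their junctions with those here was not tested. The GLI3 and PEPD circles here were lower in every E19 library, as were 4.85% of all junctions tested. STK39 exons 11 to 16 had 13, 17 and 18 reads and 35, 27 and 46 reads (adjusted p = 0.433), also without overlap. A pair of RBFOX1 circles were weak members. Outside the genes of that text, a circle of DMD (dystrophin) had 9, 11 and 7 reads at E13 and 18, 21 and 18 at E19, and ERBB4 and SMYD3 gave no core junction.

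Parental genes were grouped by 17 lists of function, which covered 416 core junctions of 267 genes. A gene could stand in several lists. Beside each count the values of all junctions are 7.43% core, 0.776% called higher and 0.388% called lower, and at the thresholds of the study 6.01% higher and 2.99% lower. In the lists, called means an adjusted p under 0.05 unless the thresholds of the study are named. At those thresholds each list had 0 to 5 core junctions higher and 0 to 3 lower. Shares of lists are descriptions, and a share near these values is not a result about a list.

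Of 27 listed genes of the sarcomere and myofibre with any circle, 5 gave core junctions, 9 of 173 junctions (5.2%), and none passed the test in either direction. The list is partial. CAPZB, described as capping actin at the Z-line of muscle, was not counted in it and gave 1 core junction with 1066 reads. Within the list LDB3, a Z-disc protein, led with 67, 45 and 64 reads at E13 and 90, 141 and 51 at E19. A ciRNA of ANK2 (ankyrin) followed with 19, 18 and 12 reads and 27, 47 and 25 reads. PALLD, an actin bundler, and SVIL, which ties actin to the membrane, gave circles of 4.78 and 3.64 SRPBM at E13 and 5.05 and 5.09 at E19. The median log2 change of the 9 was 0.67.

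Calcium handling and cyclic AMP genes gave 11 core junctions of 172 (6.4%) from 7 of 36 genes, none called at the adjusted p and 2 higher at the thresholds of the study (6.01% of all junctions tested were), with a median log2 change of 0.91. CACNA1C, the pore of an L-type calcium channel, gave a circle of exons 2 and 3 with 187, 177 and 242 reads at E13 and 125, 107 and 101 at E19. It lay lower in every E19 library (log2 change -0.89, SE 0.367, adjusted p = 0.398, edgeR). CACNA2D1, an auxiliary calcium channel subunit, had 25, 19 and 20 reads and 51, 56 and 37 reads (adjusted p = 0.433), MICU2, of mitochondrial calcium uptake, had 33, 28 and 29 reads and 27, 67 and 32 reads, and PDE10A, a cyclic nucleotide phosphodiesterase, 30, 23 and 19 reads and 33, 40 and 56 reads.

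Regulators of small GTPases, phosphatases, kinases and hosts of well known vertebrate circular RNAs had the highest core shares of the lists. Small GTPase regulators gave 67 core junctions of 605 (11.1%) from 35 of 102 genes, none called. Besides DENND1A they held circles of RALGPS2 (69, 58 and 63 reads at E13, 100, 136 and 78 at E19) and RALGPS1, exchange factors for Ral, and RAPGEF2, an exchange factor for Rap. Phosphatases gave 33 of 309 (10.7%) from 23 of 54 genes, none called. Among them INPP4B, a phosphoinositide 4-phosphatase, had 311, 238 and 348 reads at E13 and 111, 197 and 184 at E19 (log2 change -0.89, SE 0.356, adjusted p = 0.374, edgeR), and EYA2 and CTDP1 had means of 19.6 to 27.8 SRPBM at both stages.

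Protein kinases and scaffolds gave 53 of 548 (9.67%) from 35 of 118 genes, 3 of them called higher (CNKSR2, STK39 and MAPKBP1) and 1 lower (FGFR2). Hosts of well known vertebrate circular RNAs gave 27 of 234 (11.5%) from 18 of 43 genes, 1 called lower, again FGFR2. In this list RANBP17, a nuclear transport receptor, had 246, 119 and 148 reads at E13 and 112, 156 and 118 at E19, and RERE, a transcriptional corepressor, 101, 37 and 104 reads and 86, 49 and 56 reads. Both overlapped between the stages. Circles of QKI, INSR and LMO7, known from other vertebrates, were also core.

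Chromatin modifiers gave 30 of 346 (8.67%) from 18 of 77 genes, none called. The list holds SETD3, which is described in the files as an actin histidine methyltransferase, and its further leading circles came from PHIP, HDAC4 and DOT1L. HDAC4, a histone deacetylase, gave a circle of exons 1 and 2 with 126, 79 and 161 reads at E13 and 312, 202 and 110 at E19. Transcription factors and coregulators gave 36 of 474 (7.59%) from 24 of 121 genes, 1 called higher (ZNF385B), and included circles of ZNF236, at 34.5 ± 2.71 and 38.3 ± 12.2 SRPBM, and of NPAS3. RNA processing and binding gave 22 of 406 (5.42%) from 15 of 107 genes, none called. Its strongest hosts were NAA16 and RANBP17, with 3 core junctions each and 4123 and 1097 core reads. These are described above as an acetylation subunit and a nuclear transport receptor, so the list is wider than its name. It also held DHX15, a splicing helicase (102, 61 and 107 reads at E13, 110, 100 and 112 at E19), and RBFOX2, a splicing regulator (48, 16 and 50 reads, 54, 85 and 57 reads).

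Of the cytoskeleton, motors and cell junctions, 43 of 510 junctions (8.43%) from 26 of 88 genes were core and 1 was called lower, GAS2. They included CLASP2, which stabilises microtubule ends, with 31, 7 and 29 reads at E13 and 46, 62 and 53 at E19, CEP112 and MAST2. Membrane traffic gave 30 of 434 (6.91%) from 20 of 102 genes, none called, with a median log2 change of -0.16. ATP9B, a putative phospholipid transporter, had 75, 45 and 97 reads at E13 and 75, 54 and 76 at E19, and WDFY3, an autophagy adaptor, 69, 41 and 55 reads and 39, 25 and 24 reads.

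The ubiquitin system gave 20 of 305 (6.56%) from 15 of 78 genes, none called, with SENP6, a SUMO protease, RNF13, USP45 and RNF217 in front. Mitochondrial and metabolic genes gave 29 of 338 (8.58%) from 20 of 74 genes, 1 called higher (CERS6). BCKDHB, of branched-chain amino acid breakdown, had 111, 45 and 48 reads at E13 and 53, 51 and 17 at E19, and HIBADH, of valine breakdown, 31, 42 and 55 reads and 35, 55 and 29 reads.

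Genes of matrix and adhesion gave 19 core junctions of 393 (4.83%) from 15 of 72 genes, none called. SEMA5A and SEMA3D, semaphorins of axon guidance, had 30, 35 and 22 reads at E13 and 73, 71 and 43 at E19, and 51, 13 and 33 reads and 44, 34 and 29 reads. ADAM10, a membrane sheddase, had 63, 31 and 39 reads and 22, 18 and 26 reads (adjusted p = 0.433, edgeR). Markers of other cell types had core shares below or near that of all junctions, on small counts and without a test: nerve and Schwann cell markers gave 4 of 77 junctions, connective tissue markers 1 of 20 (COL12A1, with 21, 2 and 2 reads at E13 and 4, 6 and 3 at E19), and blood, immune and endothelial markers 0 of 12. None of these markers was called at the adjusted p. At the thresholds of the study 1 nerve and Schwann cell junction was higher, where 6.01% of all junctions tested were. The part of these markers in the results was not tested.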

How the data were processed

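RNA of 6 breast muscles was sequenced by the authors after ribosomal RNA depletion and RNase R digestion. Per the labels and the study's methods, reads were trimmed with Cutadapt and mapped to the Ensembl duck genome with Bowtie 2 and TopHat 2, and back-splice junctions were called with TopHat-Fusion, CIRCexplorer2 and CIRI. No source used here gives their versions or the genome build. The authors deposited counts of back-splice reads for each listed circle in each library. The deposited SRPBM values are a scaled signal: count × 1000000000 / (150 × divisor reads of the library). The divisor was 25138545 to 28703597 reads, the mapped reads plus the candidate back-splice reads that the study gives for each library. Sizes were deposited in bases. Coordinates are printed as deposited: starts in the list with exon numbers lie 1 base lower than in the list with intron coordinates, and the larger start was kept on merging. Exon numbers follow the transcript of each row. Other deposited tables hold the authors' fold changes and p-values between stages and were not used.

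Junctions were merged, tested and described with Python 3.11.15, pandas 2.3.3, R 4.3.3 and edgeR 4.0.16, checked on simulated data. Alternatives used DESeq2 1.42.0 and limma 3.58.1, other scalings, filters and merging, and each library left out. No enrichment was tested. The members and lists were chosen with earlier results of these data known. Junctions named are those with the highest level, the adjusted calls (up to 12 a direction), the most even and uneven, the highest of each type and list, the genes with most core junctions, the circles with most exons, genes the study names in its text or tables, and those at the edge of the rule. Per the methods, each stage has 3 female embryos. The p-values set the stage difference against the spread between these samples, with dispersions moderated over the junctions tested. Counting intervals are not printed. The fold changes of low junctions rest on few reads.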

Additional observations from a re-analysis of the deposited data

How the results depend on the processing

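The 18 calls at an adjusted p under 0.05 became 43 with DESeq2 (25 higher, 18 lower), 7 with the edgeR exact test (4 and 3) and 9 with a minimum of 20 reads (7 and 2). They were 17 to 25 under the other scalings, limma voom, no filter, sums of both rows and no merging. With one library left out, the count was 2 to 15. The 96 calls at the thresholds of the study ranged from 73 to 112 under these alternatives and from 70 to 96 with one library left out. The number of core junctions was 1175 without merging, 1027 at a minimum of 2 reads, and 1173 to 1244 over 5 libraries. The core share of reads, 69.6%, was 72.9% with sums of both rows and 68.8% at a minimum of 2 reads. The median CV within E13, 40.7%, was 29.3% for junctions with a mean of at least 50 reads and 32.3 to 36.7% with one library left out. Within E19, 40% became 36.6% with total back-splice reads, 23.9% at the higher mean and 31 to 34.6% with one library left out. The causes were not tested, except that a CV of 2 libraries differs by construction.

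The same replicate numbers at E13 and E19 were not treated as pairs: the correlations of the deviations of same-numbered libraries were -0.0644, 0.0254 and -0.101. With the replicate number as a block, 15 core junctions were called at the adjusted p and 77 at the thresholds of the study. All 15 were among the 18. The table of counts deposited beside the expression table, an alternative chosen after seeing the data, gave 18 and 98 calls.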

Other observations

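A total of 47 pairs of junctions with at least 1 core member lay within 30 bases of each other at both ends on the same strand, and both were core in 6 of them. These pairs were not merged by the rule, and whether they are separate circles was not tested.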
